A study of Mus musculus with 12 samples.

Results

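The 57 genes described here form a list of the Wnt pathway, chosen by name from 21938 protein-coding genes of the mouse annotation (GENCODE M21 basic set, mm10). They are 19 Wnt ligands, 12 receptors (10 Frizzled genes, Lrp5 and Lrp6), 9 secreted inhibitors, 4 R-spondins, the Wnt carrier gene Wls, 2 membrane ligases, 6 cytoplasmic components and 4 TCF/LEF factors, and all 57 symbols were found. Each gene was read over a window made of its body and 20000 bp on each side. Its transcription starts were read within 1000 bp.

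Mouse mesenchymal stem cells (MSCs) were profiled by chromatin immunoprecipitation sequencing (ChIP-seq) for acetylation of histone H3 lysine 27 (H3K27ac), a mark of active promoters and enhancers, and for trimethylation of lysine 4 (H3K4me3), a mark found mainly at promoters. The cells came from wild-type C57BL/6N male mice aged 3 to 5 months. The hypoxia groups were kept at 2% oxygen and the normoxia groups at 21% oxygen. No group carried a transgene or a deletion, and the labels give the cells as bone-marrow MSCs sorted on day 12, whereas the study's methods describe bone digested with collagenase, a first culture at 2% oxygen shared by both conditions, and a sort for CD45-, Ter-119-, Sca-1+ and CD140a+ cells. Each mark at each oxygen level had 2 libraries and gave 1 list of intervals, 4 lists in all, and 4 input libraries completed the 12. The lists held no read counts, so depth and the spread between libraries are unknown, no difference below has a replicate check, and no test was made. Confidence intervals are 95% Wilson intervals and cover counting error only.

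Starts of 11 of 15 mesenchymal marker genes held H3K27ac, against 1 of 8 blood cell, 0 of 4 endothelial and 0 of 4 epithelial marker genes. The blood gene with H3K27ac was Csf1r, and 4 mesenchymal genes (Twist2, Eng, Nt5e, Lepr) had H3K4me3 alone. The 4 lists were cut from a single segmentation of 22555 intervals, none of which overlapped another in part. An interval was therefore shared when both oxygen levels listed it, and hypoxia-only or normoxia-only when the list at the other oxygen level had no base of it.

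Wnt proteins are lipid-modified ligands that Wls carries to the cell surface, where they bind Frizzled receptors together with the co-receptors Lrp5 and Lrp6. In the canonical branch this spares β-catenin (Ctnnb1) from the destruction complex built on Axin and Apc, and β-catenin then acts with TCF/LEF factors on target genes. Secreted Frizzled-related proteins and Wif1 bind the ligands, Dkk1 and some of its relatives act on the co-receptors, and R-spondins increase signalling by restraining the ligases Znrf3 and Rnf43. In the skeleton the pathway is known for its part in bone formation.

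Sequences from RefSeq (GRCm38.p6, the build named mm10 elsewhere) are shown for the starts that the results below turn on, each as the 250 bases before the start. The promoter table held 39 of the 57 genes. Sfrp2 is shown because its start carried hypoxia-only H3K27ac, Wnt5b, Wls and Ctnnb1 because their bodies carried condition-specific H3K27ac, and Wnt1 because its start carried neither mark. Capitals mark matches, on either strand, to CTTTGAT, a core form read by TCF/LEF factors, and to ACGTG or GCGTG, core forms read by hypoxia-inducible factors. CACGTG counts as 2 matches to ACGTG, one on each strand, and matches on opposite strands can overlap. The stretches are chr3:83766071-83766320 (plus strand), chr6:119544348-119544597 (minus), chr3:159839400-159839649 (plus), chr9:120933150-120933399 (plus) and chr15:98789607-98789856 (plus).
Sfrp2: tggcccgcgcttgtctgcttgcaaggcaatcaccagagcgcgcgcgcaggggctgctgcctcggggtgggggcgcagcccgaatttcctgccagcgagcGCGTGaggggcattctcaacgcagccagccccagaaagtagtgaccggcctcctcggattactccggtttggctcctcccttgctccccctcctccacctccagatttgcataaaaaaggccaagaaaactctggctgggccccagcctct
Wnt5b: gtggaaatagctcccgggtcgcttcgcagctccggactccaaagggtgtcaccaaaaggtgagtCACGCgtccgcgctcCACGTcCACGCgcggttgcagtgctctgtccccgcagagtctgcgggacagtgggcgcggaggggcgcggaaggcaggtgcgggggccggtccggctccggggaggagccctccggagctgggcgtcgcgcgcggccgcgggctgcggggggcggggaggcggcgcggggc
Wls: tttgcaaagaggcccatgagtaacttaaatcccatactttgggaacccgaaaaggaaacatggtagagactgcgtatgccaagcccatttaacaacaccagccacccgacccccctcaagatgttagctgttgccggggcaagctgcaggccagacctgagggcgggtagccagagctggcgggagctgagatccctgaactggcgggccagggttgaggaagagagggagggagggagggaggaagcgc
Ctnnb1: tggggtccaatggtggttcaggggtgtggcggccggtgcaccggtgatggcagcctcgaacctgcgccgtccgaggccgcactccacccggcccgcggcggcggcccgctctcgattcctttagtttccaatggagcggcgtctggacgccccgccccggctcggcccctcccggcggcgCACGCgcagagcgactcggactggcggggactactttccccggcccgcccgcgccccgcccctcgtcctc
Wnt1: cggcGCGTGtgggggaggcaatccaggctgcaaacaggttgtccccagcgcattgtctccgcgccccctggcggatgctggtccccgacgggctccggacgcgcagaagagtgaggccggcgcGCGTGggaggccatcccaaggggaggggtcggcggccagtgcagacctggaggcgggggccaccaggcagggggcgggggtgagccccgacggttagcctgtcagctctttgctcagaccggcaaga
None of the 5 held CTTTGAT, which occurred in 2.77% of the 16522 promoters of the same length. ACGTG was found in the Wnt5b stretch alone among them, against 17.9% of all promoters. GCGTG was found in those of Sfrp2, Wnt5b, Ctnnb1 and Wnt1, against 34.7% of all promoters. The 5 stretches were picked for the reasons above, so these counts give no share for the members. Nkd1, whose body also carried condition-specific H3K27ac, is not shown. Its stretch held 1 match to GCGTG and no match to CTTTGAT or ACGTG.

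The state of the starts was described first, to see which parts of the pathway carried active marks in these cells. Of the 57 members, 21 (36.8%, 95% CI 25.5 to 49.8) had H3K27ac at a start in at least 1 oxygen level, and the share over all protein-coding genes was 37.7%. All 21 also had H3K4me3, a state held by 36.5% of all genes. H3K4me3 was found at 50 of 57 (87.7%, 95% CI 76.8 to 93.9), against 58.9% of all genes. Starts with H3K4me3 and no H3K27ac numbered 29 (50.9%, 95% CI 38.3 to 63.4), against 22.4% of all genes. Neither mark was present at 7 (12.3%), against 39.9%. No member had H3K27ac alone, a state held by 1.16% of all genes. Read among genes with H3K4me3, 42.0% of members (95% CI 29.4 to 55.8) and 62.0% of all genes also had H3K27ac.

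**Figure D1:**
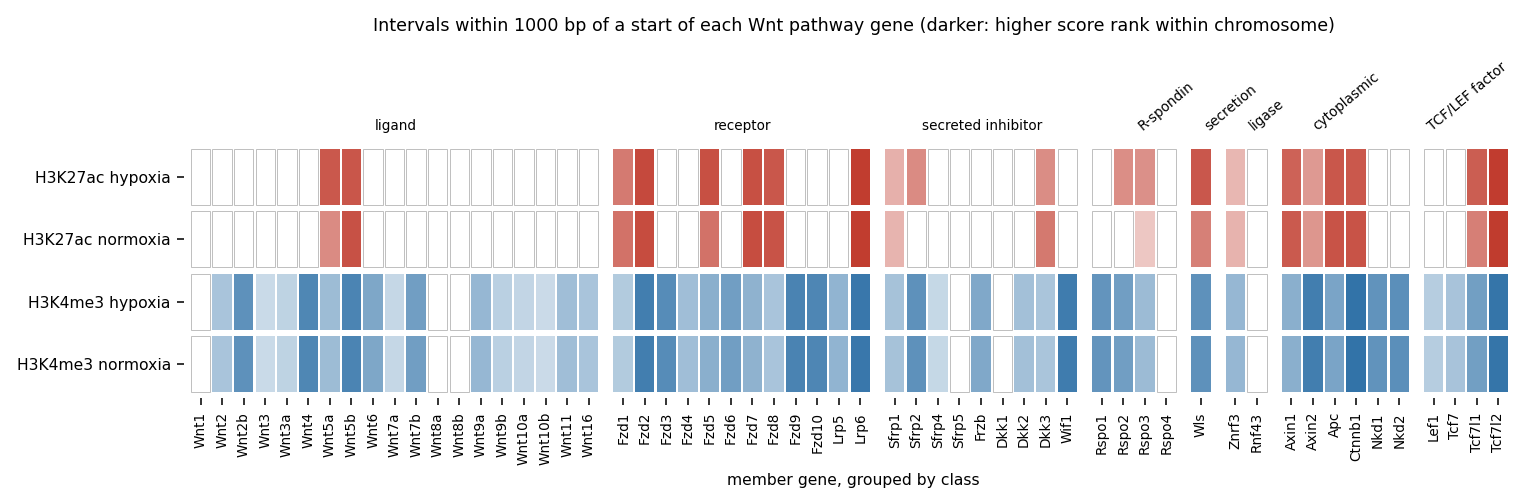
Each column is 1 of the 57 members, grouped by class, and each row is 1 of the 4 lists. A filled cell means an interval within 1000 bp of a start, darker with a higher percentile of its score within the chromosome; the H3K4me3 rows are filled at 50 members in both oxygen levels, while the H3K27ac rows are filled at 21 in hypoxia and 19 in normoxia.

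Most ligand genes carried H3K4me3 without H3K27ac in the full lists, many of them in low-scoring intervals. Of 19, 16 (84.2%, 95% CI 62.4 to 94.5) had H3K4me3 at a start and 2 (10.5%, 95% CI 2.94 to 31.4) had H3K27ac, namely Wnt5a and Wnt5b, both best known for signalling without β-catenin. Only Wnt5a had both marks at the same start. In Wnt5b, H3K4me3 lay at the 5′ end of the gene, and H3K27ac (chr6:119466001-119469000, score 128 in both lists) began 75.3 kb downstream, at an alternative start where no H3K4me3 was listed. H3K4me3 alone was found at 14 ligand genes, including Wnt4, Wnt7b, Wnt11 and Wnt16. When the lowest-scoring 25% of each list was left out, H3K4me3 alone was found at 6 ligands and neither mark at 11, so that the commonest state became neither mark. Wnt1, Wnt8a and Wnt8b had neither mark at a start.

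All 12 receptor genes carried H3K4me3 at a start (95% CI 75.8 to 100). H3K27ac was present at 6 (50%, 95% CI 25.4 to 74.6): Fzd1, Fzd2, Fzd5, Fzd7, Fzd8 and Lrp6. Fzd3, Fzd4, Fzd6, Fzd9, Fzd10 and Lrp5 had H3K4me3 alone. The start of Lrp6, a co-receptor of canonical signalling, ranked high for both marks, at percentile 97.2 of the scores of chromosome 6 for H3K27ac and 92.4 for H3K4me3 in hypoxia. The intervals for the shares of ligands and receptors with H3K27ac overlapped between 25.4 and 31.4%.

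Among secreted inhibitors, 3 of 9 (33.3%, 95% CI 12.1 to 64.6) had both marks. These were Sfrp1 and Sfrp2, which bind Wnts, and Dkk3, a divergent member of the Dickkopf family. Sfrp4, Frzb, Dkk2 and Wif1 had H3K4me3 alone. Sfrp5 and Dkk1 had neither mark.

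Of the 6 cytoplasmic components, 4 (66.7%, 95% CI 30.0 to 90.3) had both marks, against 36.5% of all genes: Axin1, Axin2, Apc and Ctnnb1. Both marks were also present at 2 of 4 TCF/LEF factors, Tcf7l1 and Tcf7l2, at 2 of 4 R-spondins, Rspo2 and Rspo3, and at Wls. The ligase gene Znrf3 had both marks at different starts. Nkd1 and Nkd2, whose products bind Dishevelled and restrain the pathway, had H3K4me3 alone, as did Rspo1, Lef1 and Tcf7. Rspo4 and Rnf43 had neither. Of 48 other pathway genes set beside the members, 7 of 24 at the cell surface or secreted (29.2%, 95% CI 14.9 to 49.2) and 20 of 24 in the cytoplasm or nucleus (83.3%, 95% CI 64.1 to 93.3) had both marks.

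**Figure D2:**
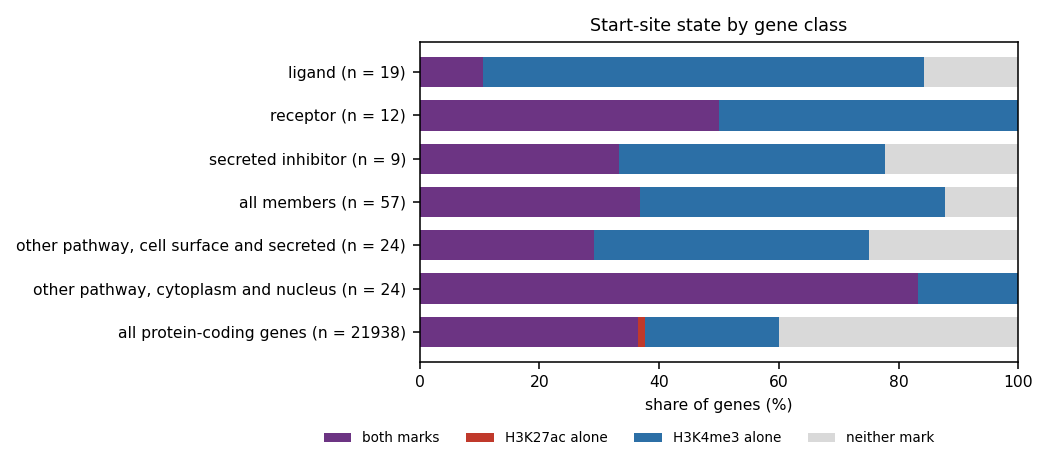
Bars give the share of genes (%) in each start-site state for ligands, receptors, secreted inhibitors, all members, the 2 lists of other pathway genes and all protein-coding genes. Both marks covered 10.5% of ligands, 50% of receptors and 33.3% of secreted inhibitors, and H3K4me3 alone covered 73.7% of ligands and 22.4% of all genes.

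The H3K4me3 intervals at these starts were ranked by the score that the authors gave each interval. It ran from 50 to 160, with the remaining intervals at 1000, and its definition was not given in the sources used here, so the ranks are not a measured level of the mark. The share at 1000 depended on the chromosome, from 0% on chromosome 14 to 86.9% on chromosome 15 for H3K4me3 in hypoxia. Each score is therefore given as a percentile of its own list and chromosome, with tied scores placed at their middle rank. The highest percentile possible thus differs between chromosomes: an H3K4me3 score of 1000 stood at 56.5 on chromosome 15 and at 68.8 on chromosome 3. At the 16 ligand genes with H3K4me3 the best start interval had a median percentile of 23.5 (range 0.336 to 80.7), against 56.5 over all 12928 genes with the mark. In 8 of the 16 (50%, 95% CI 28.0 to 72.0) it lay under percentile 25, against 13.9% of all genes. The lowest were Wnt10b at 0.336, Wnt3 at 0.566, Wnt7a at 3.5 and Wnt10a at 4.74. The highest percentiles were those of Wnt5b at 80.7 (score 130) and Wnt4 at 77.8 (score 129). Wnt2b (68.8) and Wnt7b (56.5) stood lower by percentile although both scored 1000. At the 12 receptors the median was 48.5 (range 14.7 to 92.4), and at the 7 marked inhibitors it was 24.5 (range 2.89 to 88.2). Every H3K4me3 interval shared by the oxygen levels had the same score in both lists, so the ranks of the hypoxia list are given. For H3K27ac, the 21 marked members had a median percentile of 78.9 in hypoxia, against 74.7 over all genes with the mark at a start.

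H3K4me3 intervals at member starts were 3 kb wide in the median (range 1.5 to 8.5), against 2.5 kb over all genes. The widest was at Wnt5a, at chr14:28503501-28512000, and carried H3K27ac over the same bases. Members with both marks had a median width of 4 kb and members with H3K4me3 alone 3 kb. Over all genes the same medians were 3 and 2.5 kb. The 29 H3K4me3 intervals at members without H3K27ac had a median GC content of 59.2% (range 50.2 to 64.1), against 53.4% in the 4585 such intervals of all genes. At the 21 members with both marks it was 54.5%, against 52.0%. Their observed over expected CpG ratios were 0.605 and 0.642 in the same order, against 0.547 and 0.588. The classes differed: without H3K27ac, the median GC content was 60.7% at 14 ligands, 58.0% at 6 receptors and 51.7% at 4 secreted inhibitors.

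The whole windows were read next, for H3K27ac away from the starts. At least 1 H3K27ac interval lay in the window of 33 of 57 members, against 55.2% of all genes, and at least 1 H3K4me3 interval in that of 54, against 69.7%. In 29 of the 33 the nearest start to an interval was the member's own. The exceptions were Wnt10b, with an interval at the start of Arf3, Wnt3a, Rnf43 and Tcf7, whose intervals lay nearest to neighbouring genes. H3K27ac was found in the windows of 8 ligands, 9 receptors and 3 inhibitors, and covered 3.41%, 26.9% and 9.86% of the summed windows of each class in hypoxia, against 6.67% over all genes. H3K4me3 covered 8.45%, 6.81% and 4.97% in the same order, against 4.08%. Single genes carried much of the H3K27ac totals: Lrp6 held 136 of 227 kb in the receptors and Dkk3 50 of 65.5 kb in the inhibitors, where 6 of 9 genes had none. Without the gene of most H3K27ac cover in each class (Wnt5b, Lrp6 and Dkk3), the H3K27ac shares were 2.69%, 13.4% and 2.67%, so that the inhibitors fell below all genes and, like the ligands, had less H3K27ac than H3K4me3 (4.82%).

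Cover was uneven within each class. Lrp6 had 136 kb of H3K27ac at both oxygen levels, 84.8% of its window, in 4 intervals of which the widest (61.5 kb, score 138 in both lists) lay nearest to the start of Bcl2l14. The other 3 intervals, nearest to Lrp6 itself, were 58.5, 13.5 and 4 kb wide. Lrp5, the related co-receptor, had 26 kb in its window and no H3K27ac at a start, the nearest interval beginning 2056 bp from it. Fzd7 had 16 kb. Fzd3, Fzd4 and Fzd10 had none.

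Dkk3 had the most H3K27ac among the inhibitors, 50 kb or 60.2% of its window at both oxygen levels, made of a 5 kb interval at the start and a 45 kb interval beginning 4.06 kb downstream. Sfrp1 had 12 kb, and the remaining cover in the class was the 3.5 kb of Sfrp2 in hypoxia. Wnt5b led the ligands with 13.5 kb in hypoxia and 20 kb in normoxia, followed by Wnt5a with 11.5 kb and Wnt16 with 5 kb at both. Of the Wnt5b cover in hypoxia, 5.5 kb was the start of Fbxl14, a gene lying within the Wnt5b window, and 5 kb lay nearest to Adipor2. The remaining 3 kb was at an alternative Wnt5b start. The cover added in normoxia lay nearest to Fbxl14. Tcf7l2, a main nuclear partner of β-catenin, had 98.5 kb at both oxygen levels. Ctnnb1 had 29.5 kb in hypoxia and 4.5 kb in normoxia, and Nkd1 had 17.5 and 5.5 kb.

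**Figure D3:**
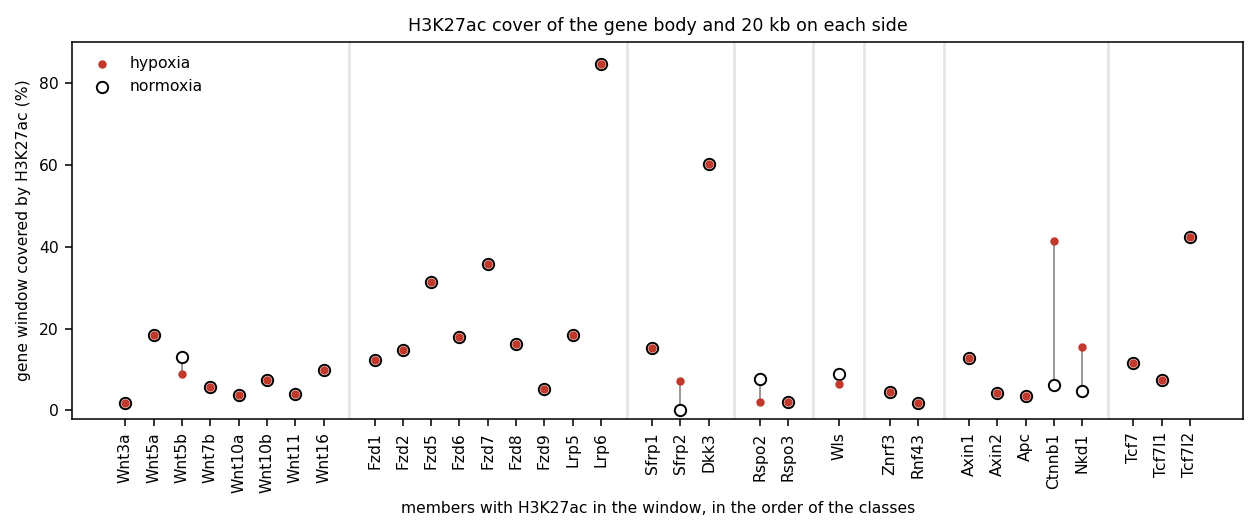
For the 33 members with H3K27ac in the window, the y axis gives the percent of the gene body and 20 kb on each side covered by H3K27ac, with filled points for hypoxia and open circles for normoxia. The symbols part at Wnt5b, Sfrp2, Rspo2, Wls, Ctnnb1 and Nkd1, the widest gap being at Ctnnb1 (41.4% and 6.31%), and they coincide at the remaining members shown.

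Condition-specific H3K27ac was found at 6 of 57 members (10.5%, 95% CI 4.91 to 21.1), against 5.81% of all genes. Hypoxia-only intervals lay at Sfrp2, Rspo2, Ctnnb1 and Nkd1 (7.02% of members, 95% CI 2.76 to 16.7), against 4.70% of all genes. Normoxia-only intervals lay at Wnt5b, Rspo2 and Wls (5.26%, 95% CI 1.81 to 14.4), against 1.15%. These calls had low scores: with the lowest-scoring 25% of the counted list left out, 0 members had a normoxia-only and 2 a hypoxia-only interval (Sfrp2 and Rspo2), against 0.132% and 1.12% of all genes. Counted by interval, 4 of the 72 distinct H3K27ac intervals of the members were hypoxia-only (5.56%, 95% CI 2.18 to 13.4), against 3.82% of all H3K27ac intervals. The 3 normoxia-only intervals made 4.17% (95% CI 1.43 to 11.5), against 1.41%. None of the 87 H3K4me3 intervals at members was condition-specific, a call made at 0.0638% of all genes, where hypoxia-only and normoxia-only intervals were 0.0411% and 0.0205% of all H3K4me3 intervals. The receptors had no condition-specific interval among their 22 (95% CI 0 to 14.9% for each kind). The shares of 3.82% and 1.41% over all H3K27ac intervals lie within that range.

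The hypoxia-only intervals at starts were those of Sfrp2 and Rspo2. They are 2 of 57 members (3.51%, 95% CI 0.968 to 11.9), against 1.10% of all genes. No member had a normoxia-only interval at a start, against 0.187% of all genes. At Sfrp2, the interval at chr3:83766001-83769500 covered the start, exon and untranslated sequence, scored 102 in hypoxia and was absent in normoxia, and its window held no H3K27ac in normoxia at all. The closest normoxia interval was 92000 bp away. Its score ranked 3 among the 32 hypoxia-only intervals of chromosome 3 and stood at percentile 44.4 of all H3K27ac scores there. H3K4me3 was listed over the same bases at both oxygen levels with a score of 1000.

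Rspo2 carried a condition-specific interval of each kind. The hypoxia-only interval, chr15:43168001-43172000, covered its start and scored 101, ranking 5 among 29 hypoxia-only intervals of chromosome 15. The normoxia-only interval, chr15:43073001-43087500, lay in the gene body over an exon, 83318 bp from the nearest Rspo2 start, and scored 52, at percentile 3.71 of its chromosome. It was 14.5 kb wide. No H3K27ac interval shared by the oxygen levels lay in the Rspo2 window, and H3K4me3 at the start was listed alike in both. Both kinds of condition-specific interval occurred together at 10 of all 21938 genes (0.0456%).

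The other hypoxia-only intervals lay within genes of intracellular components. At Ctnnb1, the interval at chr9:120947001-120972000 covered 25 kb from 13429 bp downstream of the nearest start and ran past the end of the gene into Ulk4. By width it ranked 4 of the 589 hypoxia-only intervals, while its score of 55 stood at percentile 7.63 of chromosome 9. The start interval of Ctnnb1 was listed at both oxygen levels with a score of 1000. At Nkd1, the interval at chr8:88566001-88578000 was 12 kb wide, overlapped an exon and untranslated sequence, lay 4805 bp from an alternative start and scored 53, at percentile 4.77 of chromosome 8. A shared interval of 5.5 kb lay 8000 bp upstream of it.

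The other normoxia-only intervals lay in introns. In Wnt5b the interval at chr6:119508501-119515000 scored 60 (percentile 13.8 of chromosome 6), ranked 2 among 15 normoxia-only intervals there, and lay 28833 bp from the nearest start, that of Fbxl14. In Wls the interval at chr3:159915501-159919000 was 3.5 kb wide, scored 54 and lay 75764 bp from the nearest start. It also covered an exon of the non-coding gene Gm23941. Both stood 25000 bp or more from any H3K27ac interval of the hypoxia list. With the gene body interval of Rspo2, all 3 normoxia-only intervals lay away from starts and carried no H3K4me3.

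**Figure D4:**
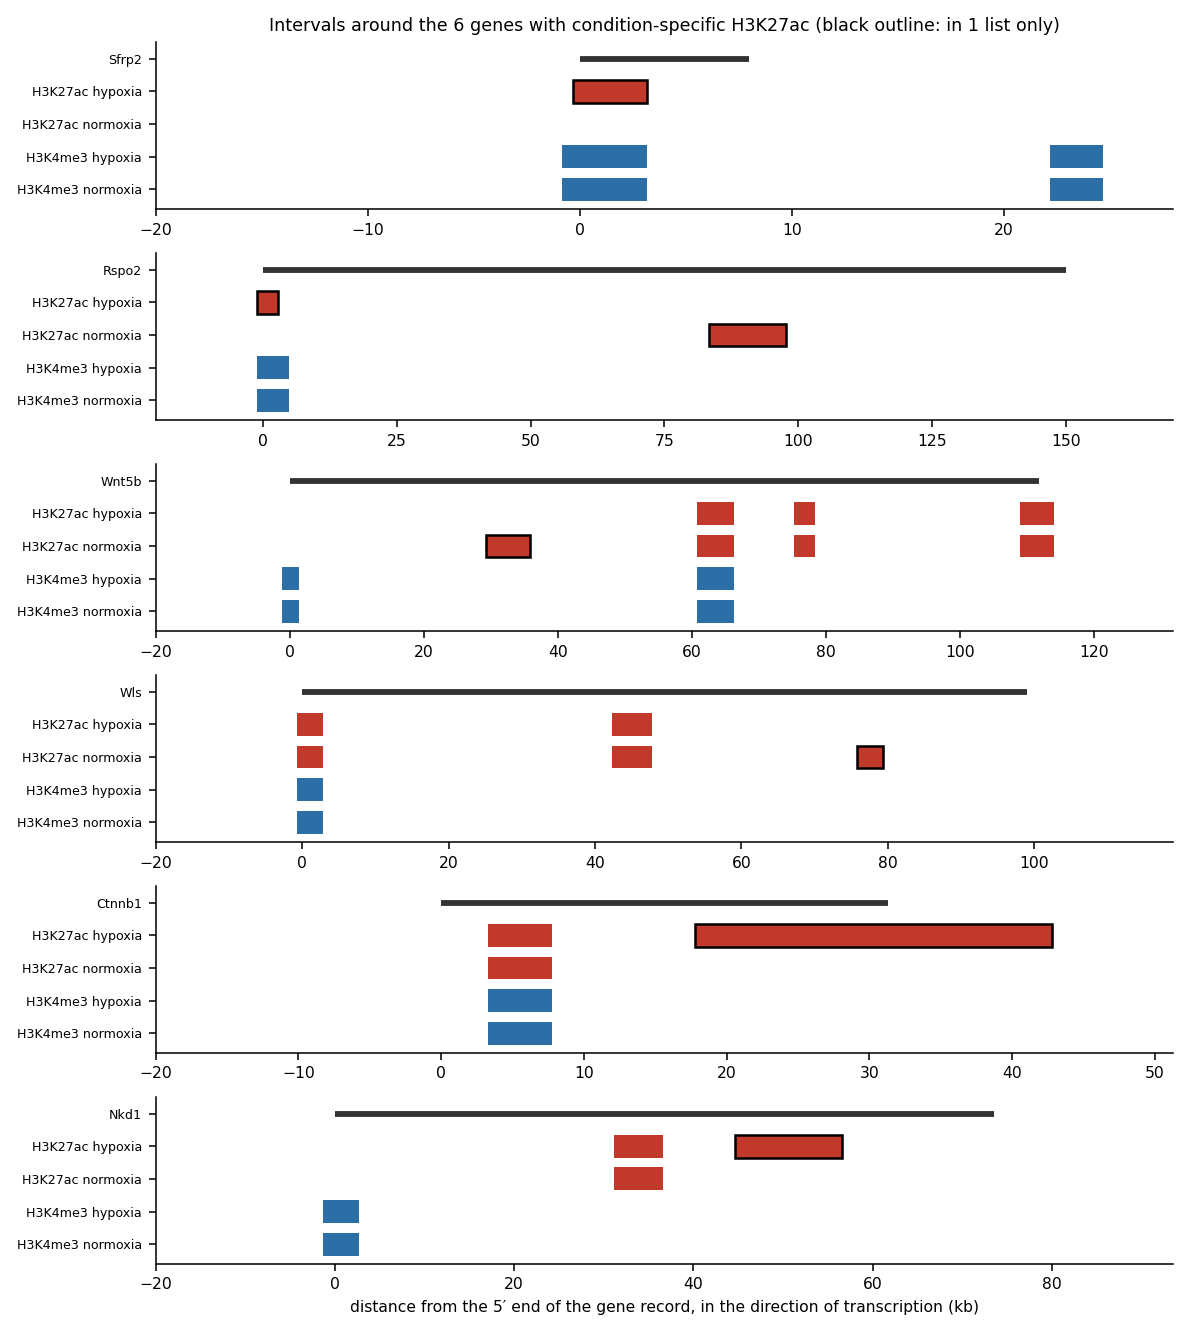
Each panel shows 1 of the 6 genes with condition-specific H3K27ac: the gene body as a bar, then the intervals of the 4 lists, against the distance from the 5′ end of the gene record in kb, with transcription running to the right. Black outlines mark intervals in 1 H3K27ac list only; those of Sfrp2 and Rspo2 in hypoxia sit at the start, and that of Ctnnb1 runs 25 kb across the 3′ end.

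The 7 intervals were then searched for CTTTGAT. Within the central 3500 bp, which all 7 and 8832 H3K27ac intervals in total could supply, at least 1 match occurred in 3 of 7 (Wnt5b with 3, Sfrp2 and Nkd1 with 1 each) and in 39.4% of the 8832. Over their full and unequal lengths, the hypoxia-only interval at Ctnnb1 held 9 matches (5 in Ctnnb1 and 4 in introns of Ulk4) and the normoxia-only interval of Rspo2 held 3, while the Rspo2 start interval and the Wls interval held none. The match at Sfrp2 (chr3:83767701-83767747), the match at Nkd1 (chr8:88570774-88570820) and the Rspo2 match at chr15:43084078-43084124 lay in introns. Of the 5 in Ctnnb1, 2 are shown, and 1 of these lay in an intron (chr9:120952351-120952397). The stretch around the other (chr9:120955107-120955153) overlapped a coding exon and is labelled by it. Whether the match itself lay in that exon was not determined. The matches are shown on the plus strand with the 7 bases in capitals.
Sfrp2: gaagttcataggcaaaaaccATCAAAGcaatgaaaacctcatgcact
Nkd1: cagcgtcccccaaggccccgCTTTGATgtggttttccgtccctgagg
Rspo2: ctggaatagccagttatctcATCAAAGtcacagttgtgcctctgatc
Ctnnb1 intron: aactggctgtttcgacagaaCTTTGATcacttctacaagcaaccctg
Ctnnb1 coding exon: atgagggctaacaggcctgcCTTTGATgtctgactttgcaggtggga
Of the 3 Wnt5b matches, 2 are shown within 200 bases of the intron, chr6:119512239-119512438. They stood in a short repeating unit, and GGATCA occurred 6 times in the stretch. The other match (chr6:119511953-119511999), also intronic and preceded by the same bases cagtgg, lay outside this stretch and is not shown.
Wnt5b intron: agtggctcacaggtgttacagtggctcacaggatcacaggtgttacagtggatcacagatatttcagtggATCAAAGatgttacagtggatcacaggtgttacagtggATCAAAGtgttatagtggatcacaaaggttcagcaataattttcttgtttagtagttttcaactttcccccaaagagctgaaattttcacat
Repeat-masked sequence made up 14.7% of the whole Wnt5b interval, against a median of 20.1% over the 218 normoxia-only intervals. A match is a description of the letters and does not show that a factor was bound. The hypoxia core forms gave little contrast, since ACGTG occurred in 84.3% and GCGTG in 85.9% of the 8832 central stretches. ACGTG was absent from the Wls stretch alone and GCGTG from the Rspo2 gene body stretch alone among the 7.

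Scores were compared last, at the 65 H3K27ac intervals of the members that both oxygen levels shared. Of the 53 with a score under 1000 in both lists, 24 (45.3%) scored lower in normoxia, against 45.6% of all 11015 such intervals, and 10 (18.9%) scored higher, against 20%. The median difference was 0 in both sets. The score was 1000 in hypoxia and under 1000 in normoxia at 5 of 65 (7.69%), against 5.45% of all shared intervals. These were the starts of Wnt5a (96 in normoxia), Fzd5 (122) and Wls (108), an interval upstream of Wnt11 (106) and a 34 kb interval in Tcf7l2 (129). The reverse, 1000 in normoxia alone, was found at 0 of 65, against 227 of all 14614 shared intervals. By percentile within the chromosome, the Wnt5a start stood at 78.9 in hypoxia, tied with the other intervals at 1000, and at 44.7 in normoxia.

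The 3 falls of most points under 1000 were at the start of Rspo3 (93 to 53), at a 21 kb interval of Tcf7l2 (122 to 83) and at an interval in the Tcf7 window nearest to Skp1a (126 to 93). The Rspo3 start went from percentile 40.8 to 4.27 of chromosome 10. The 3 rises of most points were at the 45 kb interval of Dkk3 (105 to 135), at an interval of Tcf7l1 (105 to 121) and at the 13.5 kb interval of Lrp6 (75 to 88). At the Dkk3 interval the percentile was 44.6 in hypoxia and 64.9 in normoxia. Ranked by percentile instead, an order chosen after the values were seen, the rise was larger at an interval of Fzd9 (50.3 to 78.6, 118 to 129 in score), and the falls next after Rspo3 were at the Wnt5a start and at the 34 kb interval of Tcf7l2 (97.8 to 65.3). The start interval of Dkk3 also scored higher in normoxia, 114 against 103. Both intervals of Sfrp1 scored lower, 62 against 67 at the start and 69 against 70 downstream of the gene.

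**Figure D5:**
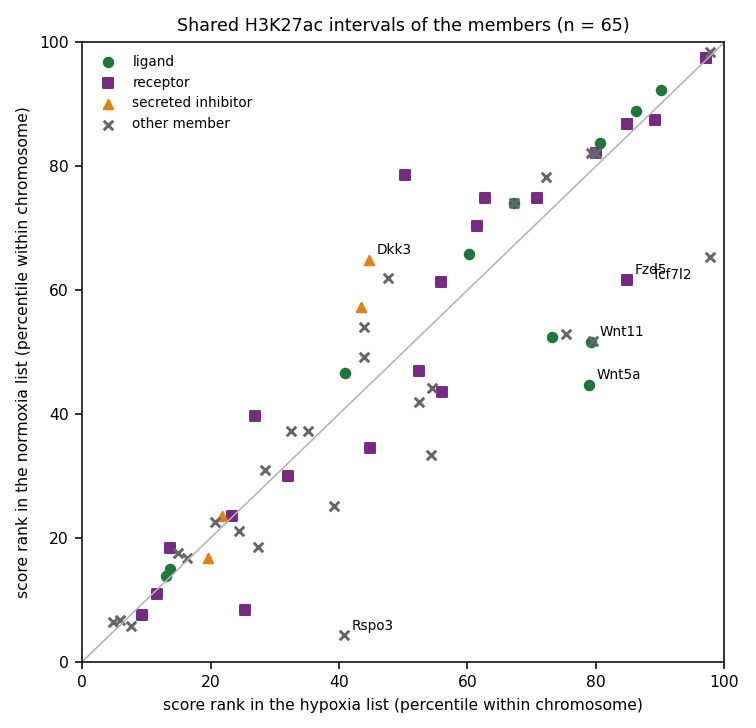
Each point is 1 of the 65 shared H3K27ac intervals of the members, placed by the percentile of its score within its chromosome in the hypoxia list (x axis) and the normoxia list (y axis); the line marks equal ranks and symbols give the class. Rspo3 (40.8 and 4.27) and Wnt5a (78.9 and 44.7) lie well below the line and Dkk3 (44.6 and 64.9) above it.

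Several ligand genes lie close together, so their windows are not independent. Wnt1 and Wnt10b shared 1 interval, Wnt3a and Wnt9a shared 2, Wnt6 and Wnt10a shared 4, and Wnt3 and Wnt9b shared none. Wnt1 had no H3K27ac in its window at either oxygen level. The 2 H3K4me3 intervals there, listed at both, lay at the starts of Wnt10b and Ddn.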

How the data were processed

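Per the study's methods, bowtie2 alignments to mm10 were cleared of duplicates (Picard MarkDuplicates), and chromstaR, run in its differential mode, called the enriched intervals. The authors deposited 4 lists of positions with a score for each interval, each made from both libraries of a group. Their own comparison from reads was not used. Intervals were joined to GENCODE M21 genes with python 3.11.15, and Wilson intervals came from scipy 1.17.1. A mark was at a start when an interval lay within 1000 bp of any start of the gene. The join was tested on simulated data. Sequences were read with pysam 0.24.0 after all 16522 promoter entries were checked against the genome.

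Members, gene lists and rules were chosen with earlier results of these data known. The rule named each member by start state, those with condition-specific H3K27ac, the 3 with most H3K27ac cover in each class or in the other classes together, the 3 largest score rises and falls, and Wnt1. Other genes were named after their values were seen, among them the lowest and highest H3K4me3 ranks. Alternatives were other windows, stricter overlap and leaving out low scores.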

Additional observations from a re-analysis of the deposited data

How the results depend on the processing

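No paired analysis was possible because each list pools both libraries of its group, so no replicate could be left out either. Of 190 alternative values, 155 stayed within 1.5 times the value reported or within its error, and 35 moved, 2 of them the H3K27ac cover of the receptors and inhibitors without Lrp6 or Dkk3, given above and chosen after seeing the data. Leaving out the lowest-scoring 25% of each list put neither mark at 18 members (7 with all intervals), 11 ligands (3) and 4 inhibitors (2), H3K4me3 at 7 ligands (16), H3K4me3 alone at 6 (14), and H3K4me3 in the window of 11 ligands (18). Leaving out the lowest 25% of each chromosome, chosen after seeing the data because scores differed between chromosomes, gave H3K4me3 at 33 members (50), at 8 ligands and at 3 inhibitors (7), H3K4me3 alone at 17 members (29), 6 ligands and 2 inhibitors (4), neither mark at 21 members, 11 ligands, 1 receptor (0) and 5 inhibitors, and H3K4me3 in the window of 4 inhibitors (8). With the 5′ end of the gene record alone, 1 ligand had H3K27ac at a start (2). Ligands with H3K27ac in the window were 2 with a flank of 5000 bp, 13 with 50000 bp and 2 with the body alone (8).

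Leaving out low scores from the counted list, whole or by chromosome, left 2 hypoxia-only intervals at 2 members, Sfrp2 and Rspo2 (4), and 0 normoxia-only intervals at 0 members (3). By chromosome, the shares of all genes were 1.04% and 0.123%. Leaving them out of both lists gave 1 normoxia-only interval at 1 member, Lrp5, against 2.60% of all genes. When done by chromosome it gave 0, against 2.85%. Hypoxia-only intervals then lay at 5 members (Fzd2, Sfrp2, Rspo2, Rspo3 and Tcf7l2), against 6.12% of all genes. By chromosome they lay at 6 with Znrf3, against 6.18%. Ctnnb1 and Nkd1 were thus lost, and intervals missing from the shortened normoxia list were gained. The calls at Ctnnb1, Nkd1, Wnt5b and Wls and the gene body call of Rspo2 thus rest on low scores.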

Other observations

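Of the 48 other pathway genes, 1 (2.08%, 95% CI 0.369 to 10.9) had condition-specific H3K27ac within 20000 bp, against 5.81% of all genes. This was a hypoxia-only interval of 13.0 kb (score 54) in the window of Pygo2, whose product acts with β-catenin. It lay at chr3:89397501-89410500, nearest to the start of Lenep. The score ranks of H3K4me3 at the starts of these 48 genes were higher than at the members. The median percentile within the chromosome was 63.1, against 40.4 at the members and 56.5 over all genes with the mark. Of 42 genes, 2 (4.76%, 95% CI 1.32 to 15.8) lay under percentile 25, against 16 of 50 members (32.0%, 95% CI 20.8 to 45.8). Among the members the median was 23.5 at ligands, 24.5 at secreted inhibitors, 48.5 at receptors and 68.4 at cytoplasmic components.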
